A study of Mus musculus with 7 samples.

Results

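PPARγ, PPARα and PPARδ (Pparg, Ppara and Ppard) are nuclear receptors that are switched by fatty acids and their derivatives, and each binds DNA as a pair with a retinoid X receptor, of which RXRα and RXRβ (Rxra and Rxrb) are the broadly expressed forms. Chromatin accessibility at these 5 genes was described in CD4+ T cells of mice infected with the helminth Nippostrongylus brasiliensis. The members were all regions in the table that overlapped the GENCODE body of one of the genes or the 10 kb on either side of it. They were 54 of 113820 regions. Pparg had 12 of them, Ppara 2, Ppard 11, Rxra 14 and Rxrb 15, and regions are named here by gene and by their order along the chromosome.

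PPARγ is known as the main regulator of fat cell formation, as a factor of alveolar macrophages and as a factor that Th2 cells, the IL-4, IL-5 and IL-13 producing helper T cells, use for their effector function in tissues. PPARα drives the burning of fatty acids in liver and muscle, and PPARδ is expressed in most tissues and controls fatty acid use as well. A PPAR paired with RXR binds the DR1 element, a pair of AGGTCA hexamers in the same direction with 1 base between them, and recruits coactivators when a ligand is bound or corepressors when it is not.

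In ATAC-seq a transposase cuts and tags DNA where chromatin is open, and a region with more insertions is more accessible. All 7 libraries came from C57BL/6 reporter mice given 500 L3 larvae of N. brasiliensis under the skin and sampled on day 8, with 50000 sorted CD4+ T cells in each. LN IL-4+ cells (n = 2) were GFP+ cells of the mediastinal lymph node and lung IL-4+ cells (n = 3) were GFP+ cells of the lung, both from IL-4-4get mice, in which GFP marks cells that have turned on the Il4 locus, whether or not they secrete the cytokine. Lung IFNγ+ cells (n = 2) were YFP+ cells of the lung from IFN-gamma reporter mice of the GREAT strain. All were infected, so no library of uninfected or reporter-negative cells was compared here. The mice of all populations belonged to a single experiment, and the labels do not tie a library to a mouse, so p-values measure the spread between these libraries.

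Values are the deposited log2 of normalized insertions per kilobase of region, called log2 density below. The libraries held between 14005923 and 91681969 insertions as rebuilt from the table, a lower bound, and the 54 regions between 1 and 5128 insertions in a single library. Before any comparison the libraries fell into 2 spread classes that crossed the populations. Narrow were replicate 1 of LN IL-4+ and replicates 2 and 3 of lung IL-4+ cells, with a ratio of upper to lower quartile of insertions per region of 1.67 to 1.75 on the log2 scale, and the other 4 libraries were wide, with ratios of 2.91 to 3.09. Differences within a class are therefore given beside the pooled ones where they matter. A region was called when limma's adjusted p, over all 113820 regions, was below 0.05 and the fold change was at least 3. The 3 populations were compared in pairs, and comparisons that share a population share its libraries.

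The label of CD4+ T cells was checked on regions within 1 kb of the starts of marker genes. All 6 CD4 T cell markers, Cd3d, Cd3e, Cd3g, Cd4, Cd5 and Lck, had such a region. Their densities were 12.2 to 27.9 normalized insertions per kb for a single gene. Summed over the 6 genes they were 98.3 to 141.0 in the 7 libraries. Of 7 macrophage markers, Marco, Siglecf, Csf1r, Lyz2, Chil3 and Mrc1 had none, and Cd68 had densities from 13.9 to 17.6 in the 3 narrow libraries and at most 7.67 in the 4 wide ones. None of the 5 basophil and eosinophil markers had a region, nor did Cd79a, Cd79b and Ms4a1 of the 5 B cell markers, Cd8a, Ncr1 or Sftpc. The B cell gene Pax5 had densities of 35.4 and 37.4 in LN IL-4+ cells, above every single CD4 T cell marker, and of 7.70 to 21.8 in the lung libraries. Blk had the opposite order, with 7.19 and 8.67 against 11.4 to 18.5. Summed over both, B cell markers ranged from 42.5 to 46.1 in LN IL-4+, from 19.1 to 40.4 in lung IL-4+ and from 34.5 to 37.0 in lung IFNγ+ libraries. Cd8b1 ranged from 2.95 to 7.31, the NK cell gene Klrb1c from 1.15 to 7.66 with both lung IFNγ+ libraries highest, and the lung epithelium genes Epcam and Cdh1 together from 17.3 to 26.6. A region is in the table only where a peak was found, so a gene without one is not a measured 0. The sort had kept CD3e+ CD4+ cells and left out cells with CD11b, CD11c, CD8, B220, NK1.1 or Ter119.

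Of the 5 regions called between lung and LN IL-4+ cells, 4 lay in introns of Pparg and Ppard and 1, Pparg_4, over a coding exon of Pparg. The central 300 bases of the 3 intronic regions of Pparg and of the single called region of Ppard are shown, on the plus strand of GRCm38, so that their content can be read beside the values. Capitals mark AGATAA, one form of the site that GATA factors bind, TGANTCA, the core of the AP-1 family, and AGGTCA, on either strand. Other forms of the GATA site were not searched and stay in lower case. Pparg_5 is shown at chr6:115440594-115440893, Pparg_10 at chr6:115480466-115480765, Pparg_11 at chr6:115481851-115482150 and Ppard_9 at chr17:28290713-28291012.
Pparg_5: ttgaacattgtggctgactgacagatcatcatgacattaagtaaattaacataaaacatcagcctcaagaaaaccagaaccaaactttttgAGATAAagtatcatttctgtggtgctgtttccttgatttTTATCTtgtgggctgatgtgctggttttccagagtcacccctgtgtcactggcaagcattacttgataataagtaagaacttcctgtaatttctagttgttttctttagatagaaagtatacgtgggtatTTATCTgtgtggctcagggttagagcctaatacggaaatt
Pparg_10: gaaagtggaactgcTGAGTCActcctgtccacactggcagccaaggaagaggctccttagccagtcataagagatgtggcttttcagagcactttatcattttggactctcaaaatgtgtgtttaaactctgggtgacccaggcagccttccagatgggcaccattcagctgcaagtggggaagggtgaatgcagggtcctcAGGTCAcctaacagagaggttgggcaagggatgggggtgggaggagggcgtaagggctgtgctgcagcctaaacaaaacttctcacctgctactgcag
Pparg_11: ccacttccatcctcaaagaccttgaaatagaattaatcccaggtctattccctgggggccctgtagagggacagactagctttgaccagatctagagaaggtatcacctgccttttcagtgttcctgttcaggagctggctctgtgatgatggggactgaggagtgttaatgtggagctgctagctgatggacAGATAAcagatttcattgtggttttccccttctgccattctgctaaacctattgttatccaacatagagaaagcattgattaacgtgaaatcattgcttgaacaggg
Ppard_9: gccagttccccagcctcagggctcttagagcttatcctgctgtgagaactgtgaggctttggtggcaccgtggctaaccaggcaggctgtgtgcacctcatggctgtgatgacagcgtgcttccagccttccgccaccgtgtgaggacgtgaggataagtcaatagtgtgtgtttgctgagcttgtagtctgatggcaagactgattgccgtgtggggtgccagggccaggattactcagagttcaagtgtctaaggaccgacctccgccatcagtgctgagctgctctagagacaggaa
The Pparg_5 window held AGATAA 3 times, which 0.156% of all region windows of this length did, while 15.2% held it at least once. The Pparg_11 window held it 1 time. So did the windows of Pparg_2, Pparg_6 and Pparg_8, which were not called, while the called Pparg_4 and Pparg_10 did not hold it. The shares of all windows were not matched for base composition, and Pparg_5 had 38.7% GC where the median of all regions was 46.9%. Pparg_10 held TGANTCA and AGGTCA once each, which were present in 13.0% and 17.6% of all windows. AACCACA, the core that RUNX factors bind, was searched as well and is left in lower case. Among the windows shown it was found once, in Pparg_11, and it was present in 11.04% of all windows. None of the 4 motifs were found in the Ppard_9 window. A match is a string of letters and does not show that a factor was bound.

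Lung IL-4+ cells had more accessible chromatin than LN IL-4+ cells at 4 of the 12 Pparg regions and at 1 Ppard region. Of the 54 regions at the 5 genes, 5 were called higher in lung IL-4+ cells, 4 at Pparg and 1 at Ppard, and 0 were called higher in LN IL-4+ cells by limma. Of all 113820 regions, 1.05% were called higher in lung IL-4+ and 0.695% higher in LN IL-4+ cells. All 12 Pparg regions had higher means in lung IL-4+ cells, with a median log2 fold change of 1.74 where the median of all regions was -0.03. In 10 of the 12 every lung IL-4+ library lay above every LN IL-4+ library, as did 13.6% of all regions. At an unadjusted p below 0.05, 15 of the 54 regions were higher and 0 lower in lung IL-4+ cells, where 8.82% of all regions were higher and 7.38% lower, and voom on the rebuilt counts called 5 and 0.

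Summed over its 12 regions, Pparg had 23.0 and 23.1 normalized insertions in the LN IL-4+ libraries. The lung IL-4+ libraries had 83.6, 72.2 and 90.6, and the lung IFNγ+ libraries 33.1 and 40.6. The 3 populations did not overlap, and lung IL-4+ cells stood highest with a mean of 82.2 ± 9.26 (SD, n = 3). Their signal was 3.55-fold that of LN IL-4+ cells. Folds of summed signals come from differences in mean log2 signal and are not ratios of the means given. The exact two-sided permutation test gave p = 0.1, the smallest that 3 against 2 libraries allow. Within the spread classes the log2 difference was nearly the same, with 1.81 between narrow and 1.86 between wide libraries. In sorted bulk cells, a larger share of cells with open Pparg chromatin and more insertions per cell cannot be told apart.

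**Figure D1:**
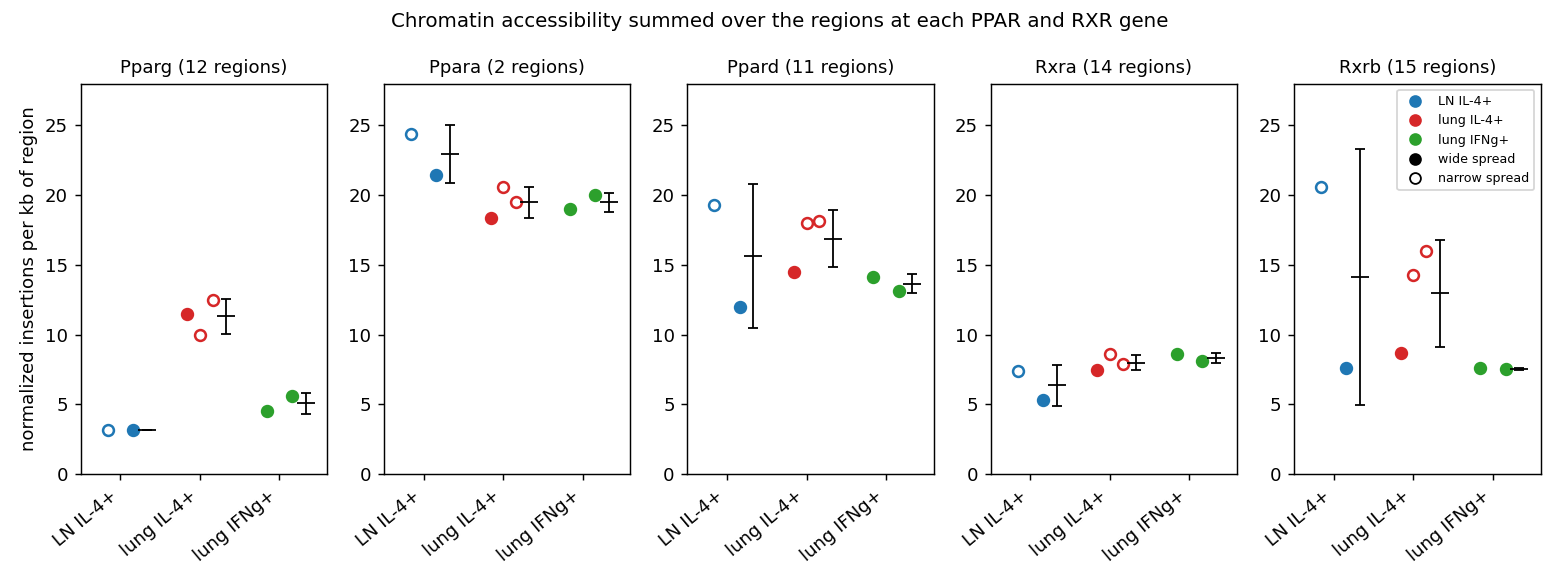
Normalized insertions per kb of region, summed over the regions at each gene, in each library (points; open for narrow and filled for wide spread) with the population mean and SD (bars; n = 2 LN IL-4+, 3 lung IL-4+, 2 lung IFNg+). At Pparg the lung IL-4+ libraries lie between 9.95 and 12.5 and all others at or below 5.59, whereas at Rxrb open and filled points separate within a population.

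Pparg_5, at chr6:115440497-115440990 in an intron, 79792 bp into the gene, had the largest difference of all 54 regions. Its log2 density was 1.36 and 2.17 in the LN IL-4+ libraries, 4.98, 4.84 and 5.11 in the lung IL-4+ libraries, and 3.48 and 4.10 in the lung IFNγ+ libraries. The populations formed 3 separate steps, with lung IL-4+ cells highest. The log2 fold change between lung and LN IL-4+ cells was 3.21 (SE 0.29, limma adjusted p = 0.00218), a 9.24-fold difference. The 3 copies of AGATAA shown above lie in this region.

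Pparg_4, directly upstream at chr6:115439465-115440038, covers a coding exon and an annotated internal start of the gene. It had log2 densities of 0.15 and 1.27 in LN IL-4+ libraries, of 3.37, 3.05 and 3.61 in lung IL-4+ libraries and of 1.85 and 2.00 in lung IFNγ+ libraries. Again the lung IL-4+ libraries were highest without overlap, with a log2 fold change over LN IL-4+ of 2.63 (SE 0.41, limma adjusted p = 0.0101).

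Near the 3′ end of the gene, Pparg_10 and Pparg_11 formed another pair of called regions in an intron, 119664 and 121050 bp from the gene start. Pparg_10, at chr6:115480233-115480998, had 2.36 and 1.92 in LN IL-4+, 3.98, 3.81 and 4.15 in lung IL-4+, and 3.11 and 3.20 in lung IFNγ+ libraries, with a log2 fold change of lung over LN IL-4+ of 1.84 (SE 0.26, limma adjusted p = 0.00689). Pparg_11, at chr6:115481628-115482374, had 2.41 and 1.97 in LN IL-4+, 4.62, 4.07 and 4.51 in lung IL-4+, and 2.61 and 2.99 in lung IFNγ+ libraries, with a log2 fold change of 2.21 (SE 0.28, limma adjusted p = 0.00472). At Pparg_10 the lung IFNγ+ libraries lay midway, while at Pparg_11 they lay close to the LN IL-4+ libraries.

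The other Pparg regions were not called in this comparison. Pparg_1, at chr6:115360818-115362238 over the first start of the gene and named after its values were seen, had 2.52 and 2.48 in LN IL-4+, 3.34, 3.49 and 3.72 in lung IL-4+, and 2.46 and 2.52 in lung IFNγ+ libraries. Its lung IL-4+ libraries stood above all others, with a log2 difference from LN IL-4+ of 1.02 (95% interval 0.44 to 1.59, limma adjusted p = 0.0686). The 4 called regions further inside the gene had larger differences, which the fold change of at least 3 required of them. Pparg_2, in an intron and not called, had a smaller difference than Pparg_1, 0.79. Of the 4 called regions, Pparg_4 and Pparg_5 lie within 1 kb of an annotated internal start. Between Pparg_2 and Pparg_3, the annotated starts at positions 115383699 and 115422066 lay 20527 and 10366 bp from the nearest region. The remaining regions, Pparg_2, Pparg_3, Pparg_6 to Pparg_9 and Pparg_12, had log2 fold changes of 0.79 to 2.08 and limma adjusted p-values of 0.0503 to 0.661. Pparg_12 was the most thinly covered region of the gene, with as few as 3 insertions in a library, and its lung IL-4+ log2 densities ran from -0.76 to 3.10.

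**Figure D2:**
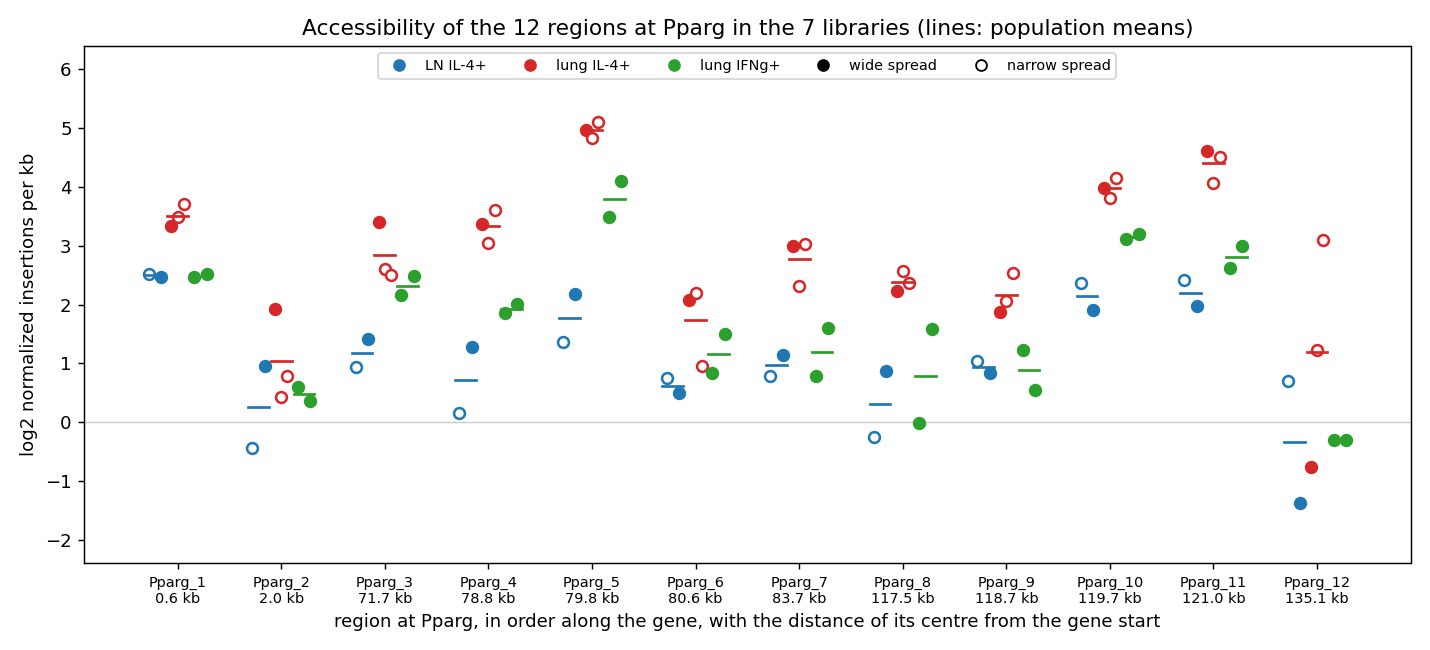
log2 normalized insertions per kb of the 12 Pparg regions in each library (points; open for narrow and filled for wide spread), with lines at the population means. The red points of lung IL-4+ cells lie above the blue points of LN IL-4+ cells without overlap in 10 of the 12 regions, and Pparg_5 has the highest lung IL-4+ values, 4.84 to 5.11.

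These calls rested on a shared estimate of the spread. Pparg_5, Pparg_10 and Pparg_11 were called in 15 of 17 alternative fits and Pparg_4 in 14, and all were lost without a variance trend or with a replicate block, settings in which 0 of the 113820 regions were called in this comparison. Without lung IL-4+ replicate 2 Pparg_4 was lost as well.

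Ppard_9 was the only called region outside Pparg. It lies in an intron of Ppard at chr17:28290609-28291116, with log2 densities of 1.52 and 1.71 in LN IL-4+, 3.36, 3.76 and 3.17 in lung IL-4+, and 2.94 and 2.70 in lung IFNγ+ libraries. Both lung populations stood above LN IL-4+ cells, and the log2 fold change of lung over LN IL-4+ cells was 1.82 (SE 0.30, limma adjusted p = 0.0125). The call was held in 13 of 17 alternative fits, with adjusted p-values between 0.00113 and 0.129, and was lost without lung IL-4+ replicate 2.

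No other Ppard region was called in lung against LN IL-4+ cells by limma, beside 1.05% of all regions called higher and 0.695% lower. Of the other Ppard regions, 0 had an unadjusted p below 0.05, where 8.82% of all regions were higher and 7.38% lower. The region over its first start, Ppard_4 at chr17:28231537-28233825, had a log2 fold change of -0.04 (95% interval -0.72 to 0.65, limma adjusted p = 0.974). Its values were 4.58 and 3.49 in LN IL-4+, 3.73, 4.00 and 4.25 in lung IL-4+, and 3.69 and 3.67 in lung IFNγ+ libraries, so that the LN pair enclosed all the others. The most accessible Ppard region per kb, Ppard_5 at chr17:28256785-28257640 in an intron, had 5.15 and 5.11 in LN IL-4+, 5.27 to 5.55 in lung IL-4+ and 5.37 and 5.21 in lung IFNγ+ libraries. The 8 regions other than these and Ppard_9 had log2 fold changes of -0.98, at Ppard_8, to 1.19, at Ppard_6. Over all 11 the median was 0.38, and in 3 of them the lung IL-4+ libraries lay above the LN IL-4+ libraries without overlap, as in 13.6% of all regions. The summed signal overlapped, with means of 157.9 ± 19.3 (SD, n = 3) in lung and 146.1 ± 48.1 (SD, n = 2) in the lymph node and exact permutation p = 0.7. The log2 difference was 0.27 between wide libraries and -0.09 between narrow ones, so its sign differed between the classes.

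Between the lung populations, Pparg again had the higher values in IL-4+ cells, but with fewer calls. Of the 54 regions, 1 was called in favour of IL-4+ cells and 0 in favour of IFNγ+ cells by limma. Of all regions, 0.108% were called higher in lung IL-4+ and 0.387% higher in lung IFNγ+ cells. The called region was Pparg_11, with the values given above, a log2 fold change of 1.60 (SE 0.28, limma adjusted p = 0.0379) and all 3 lung IL-4+ libraries above both lung IFNγ+ libraries. All 12 Pparg regions had higher means in lung IL-4+ cells, with a median log2 fold change of 1.23 where the median of all regions was -0.01. In 9 of the 12 the libraries did not overlap, as in 19.4% of all regions. At an unadjusted p below 0.05, 11 of the 54 regions were higher and 0 lower in lung IL-4+ cells, where 6.36% of all regions were higher and 8.45% lower, and voom on the rebuilt counts called 1 and 0. The call of Pparg_11 was held in 7 of 17 alternative fits, with adjusted p-values between 0.000593 and 0.787, and was lost when any one of the 5 lung libraries was left out.

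Pparg_5 had a log2 difference of 1.18 (95% interval 0.54 to 1.83, limma adjusted p = 0.111) between the lung populations, and Pparg_4 one of 1.42 (95% interval 0.52 to 2.31, limma adjusted p = 0.164). The largest difference at Pparg was at Pparg_8, at chr6:115478284-115478684 in an intron, with log2 densities of -0.25 and 0.87 in LN IL-4+, 2.23, 2.58 and 2.37 in lung IL-4+, and -0.02 and 1.59 in lung IFNγ+ libraries. The lung IL-4+ libraries lay close together above all others, but with as few as 9 insertions in a library the limma adjusted p was 0.262 for a log2 difference of 1.60 (95% interval 0.30 to 2.91). Summed over the gene, lung IL-4+ cells had 2.23-fold the signal of lung IFNγ+ cells, 82.2 ± 9.26 (SD, n = 3) against 36.8 ± 5.33 (SD, n = 2), without overlap and with exact permutation p = 0.1, the smallest possible. Both lung IFNγ+ libraries were wide, and against the 1 wide lung IL-4+ library alone the log2 difference was 1.19, close to the 1.16 over all 3.

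Lung IFNγ+ libraries stood between those of the IL-4+ populations without overlap at Pparg_3, Pparg_4, Pparg_5, Pparg_10 and Pparg_11. At Pparg_3 the higher lung IFNγ+ library lay only just below the lowest lung IL-4+ library. The share of all regions with this order of the populations was not computed, so the order is a description of these regions only. At Pparg_1, Pparg_9 and Pparg_12 the means of lung IFNγ+ cells were near those of LN IL-4+ cells. Of the 54 regions, Pparg_5 was called with the higher value in lung IFNγ+ cells, a log2 fold change from LN IL-4+ of 2.03 (SE 0.32, limma adjusted p = 0.008), and 0 were called higher in LN IL-4+ cells. Of all regions, 2.17% were called higher in lung IFNγ+ and 0.862% higher in LN IL-4+ cells. The median log2 fold change over the 12 Pparg regions was 0.51, and 6 of them did not overlap in this direction, as did 26.5% of all regions. At Pparg_1, over the first start, the difference was -0.01 (95% interval -0.64 to 0.62). At an unadjusted p below 0.05, 9 of the 54 regions were higher and 2 lower in lung IFNγ+ cells, where 10.7% of all regions were higher and 7.81% lower, and voom on the rebuilt counts called 1 and 0. The call of Pparg_5 was held in 12 of 17 alternative fits, with adjusted p-values between 0.00156 and 0.125, and was lost when either lung IFNγ+ library was left out. The summed signal was 1.59-fold that of LN IL-4+ cells, without overlap, and 2 against 2 libraries cannot go below p = 0.333 in the exact permutation test.

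**Figure D3:**
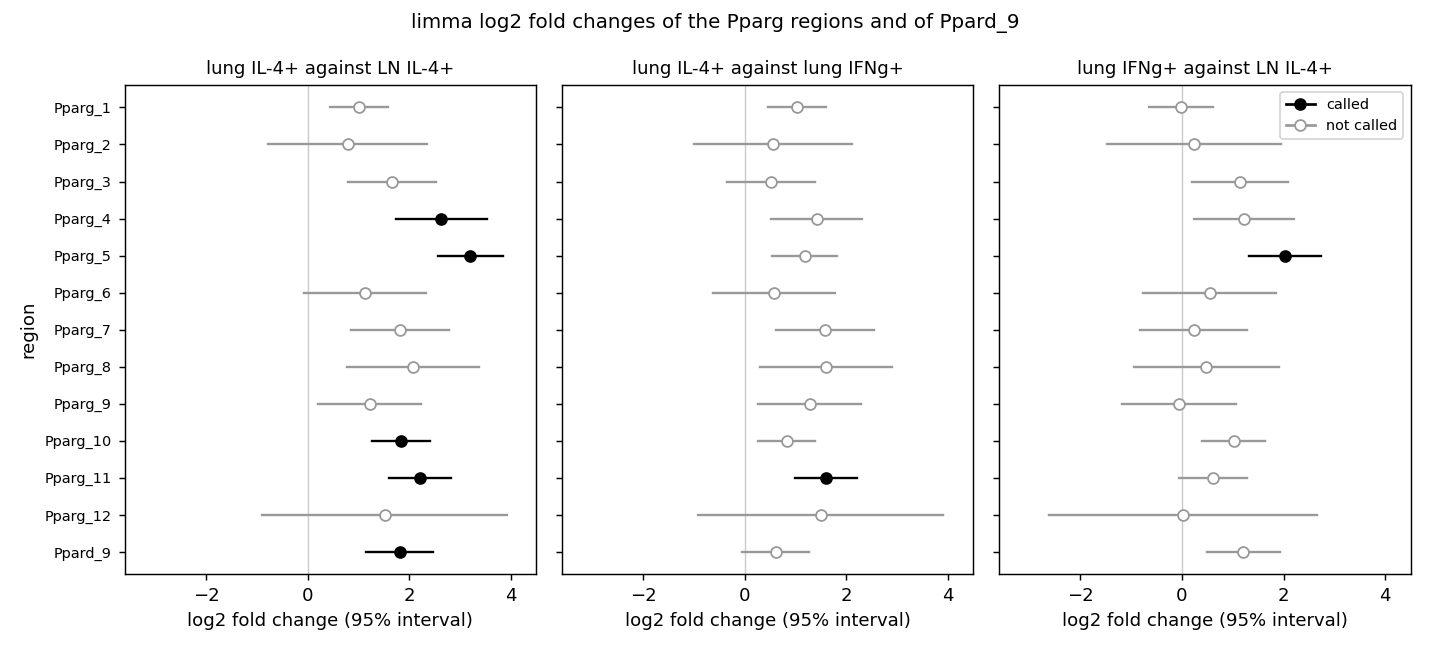
limma log2 fold changes (points) with 95% intervals (lines) of the 12 Pparg regions and of Ppard_9 in the 3 comparisons, filled where the region was called. Called regions are 5 in lung IL-4+ against LN IL-4+, 1 in lung IL-4+ against lung IFNg+ (Pparg_11) and 1 in lung IFNg+ against LN IL-4+ (Pparg_5).

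Ppara, the receptor of fatty acid oxidation, had only 2 regions, and neither was called in any comparison by limma, with 1 at an unadjusted p below 0.05. Ppara_1 covers its first start at chr15:85734607-85735990, with log2 densities of 4.27 and 4.17 in LN IL-4+, 4.01, 4.18 and 3.91 in lung IL-4+, and 3.66 and 3.80 in lung IFNγ+ libraries. Ppara_2 lies downstream at chr15:85810074-85811943, over the start of another gene, Cdpf1, with 4.82 and 4.59 in LN IL-4+, 4.33, 4.48 and 4.51 in lung IL-4+, and 4.57 and 4.61 in lung IFNγ+ libraries. At Ppara_1 the lung IFNγ+ libraries were lowest and at Ppara_2 the lung IL-4+ libraries were. The largest difference was -0.49 on the log2 scale, of lung IFNγ+ from LN IL-4+ libraries at Ppara_1 (95% interval -0.97 to -0.00, limma adjusted p = 0.266). Summed over both regions, lung IL-4+ cells had 0.85-fold the signal of LN IL-4+ cells, without overlap and with exact permutation p = 0.1, and the log2 difference was -0.28 between narrow and -0.22 between wide libraries.

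At Ppard, 0 regions were called between the lung populations by limma, beside 0.108% of all regions called higher and 0.387% lower in IL-4+ cells. At an unadjusted p below 0.05, 2 were higher in lung IL-4+ cells and 0 lower, where 6.36% of all regions were higher and 8.45% lower. The means of all 11 regions were higher in the IL-4+ than in the IFNγ+ cells of the lung, with a median log2 fold change of 0.33 and 5 regions without overlap, as in 19.4% of all regions. The largest was at Ppard_2, at chr17:28224843-28225243, upstream of Ppard within the gene Def6, with 1.88, 3.31 and 3.31 in lung IL-4+ and 1.74 and 1.38 in lung IFNγ+ libraries. There the 2 narrow lung IL-4+ libraries were high and the wide one lay near the lung IFNγ+ libraries, and the log2 difference of 1.28 over all libraries (limma adjusted p = 0.316) was 0.32 against the wide lung IL-4+ library alone. For the summed signal, the same step reduced the log2 difference from 0.30 to 0.09. At Ppard_9 lung IFNγ+ cells exceeded LN IL-4+ cells by 1.21 on the log2 scale (95% interval 0.49 to 1.93, limma adjusted p = 0.0684).

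Rxra, which encodes a common partner of PPARγ, had 0 regions called in the 3 comparisons by limma, beside 0.108% to 2.17% of all regions called in a direction. Its summed signal was 75.9 and 54.6 in LN IL-4+, 76.4, 87.9 and 81.1 in lung IL-4+, and 87.8 and 82.7 in lung IFNγ+ libraries. All 5 lung libraries lay above both LN libraries, though lung IL-4+ replicate 1 and LN IL-4+ replicate 1 were nearly equal. From mean log2 signals, lung IL-4+ cells had 1.27-fold the signal of LN IL-4+ cells with exact permutation p = 0.1. That log2 difference of 0.34 was 0.10 without LN IL-4+ replicate 2 and 0.58 without LN IL-4+ replicate 1, and for lung IFNγ+ cells 0.40 became 0.17 and 0.64, so that the LN libraries set its size. The 2 lung populations overlapped, with means of 81.8 ± 5.75 (SD, n = 3) and 85.3 ± 3.60 (SD, n = 2) and exact permutation p = 0.5. At an unadjusted p below 0.05, 5, 0 and 4 of its 14 regions were higher in the first population of lung IL-4+ against LN IL-4+, lung IL-4+ against lung IFNγ+ and lung IFNγ+ against LN IL-4+, and 0 were lower. The shares of all regions that were higher in this way were 8.82%, 6.36% and 10.7%. Narrow libraries gave a smaller log2 difference between lung and LN IL-4+ cells than wide ones did, 0.15 against 0.48.

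Among the 14 Rxra regions, 6 lay above the LN libraries without overlap in lung IL-4+ cells and 6 in lung IFNγ+ cells, as did 13.6% and 26.5% of all regions. Rxra_3, the most accessible per kb, lies in an intron at chr2:27693540-27694145. It had log2 densities of 3.22 and 2.83 in LN IL-4+, 3.79, 3.76 and 3.76 in lung IL-4+, and 4.18 and 3.98 in lung IFNγ+ libraries, so that the populations formed 3 steps with lung IFNγ+ cells highest. Lung IFNγ+ cells exceeded LN IL-4+ cells there by 1.05 on the log2 scale (SE 0.24, limma adjusted p = 0.0405), a 2.07-fold difference that is under the fold change of 3. Rxra_10, in an intron at chr2:27732836-27733404, had the largest difference between lung and LN IL-4+ cells, with 1.11 and 1.42 in LN IL-4+, 2.46, 2.62 and 2.98 in lung IL-4+, and 2.51 and 2.03 in lung IFNγ+ libraries. The lung libraries were all above the LN libraries, with a log2 difference of 1.42 for lung IL-4+ cells (95% interval 0.64 to 2.21, limma adjusted p = 0.0626). At Rxra_9, at chr2:27729484-27731170, lung IFNγ+ cells exceeded LN IL-4+ cells by 1.34 on the log2 scale (limma adjusted p = 0.124), and at Rxra_2, at chr2:27692191-27692591, lung IL-4+ cells were 0.70 below lung IFNγ+ cells (limma adjusted p = 0.386).

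The region over the first Rxra start differed from those introns. Rxra_1, at chr2:27676332-27677984, had log2 densities of 3.70 and 3.09 in LN IL-4+, 3.29, 2.80 and 2.95 in lung IL-4+, and 3.19 and 3.34 in lung IFNγ+ libraries. The populations overlapped, and the log2 difference between lung and LN IL-4+ cells was -0.38 (SE 0.28, limma adjusted p = 0.576). The other 9 Rxra regions had log2 fold changes between -0.66 and 0.86 over the 3 comparisons.

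**Figure D4:**
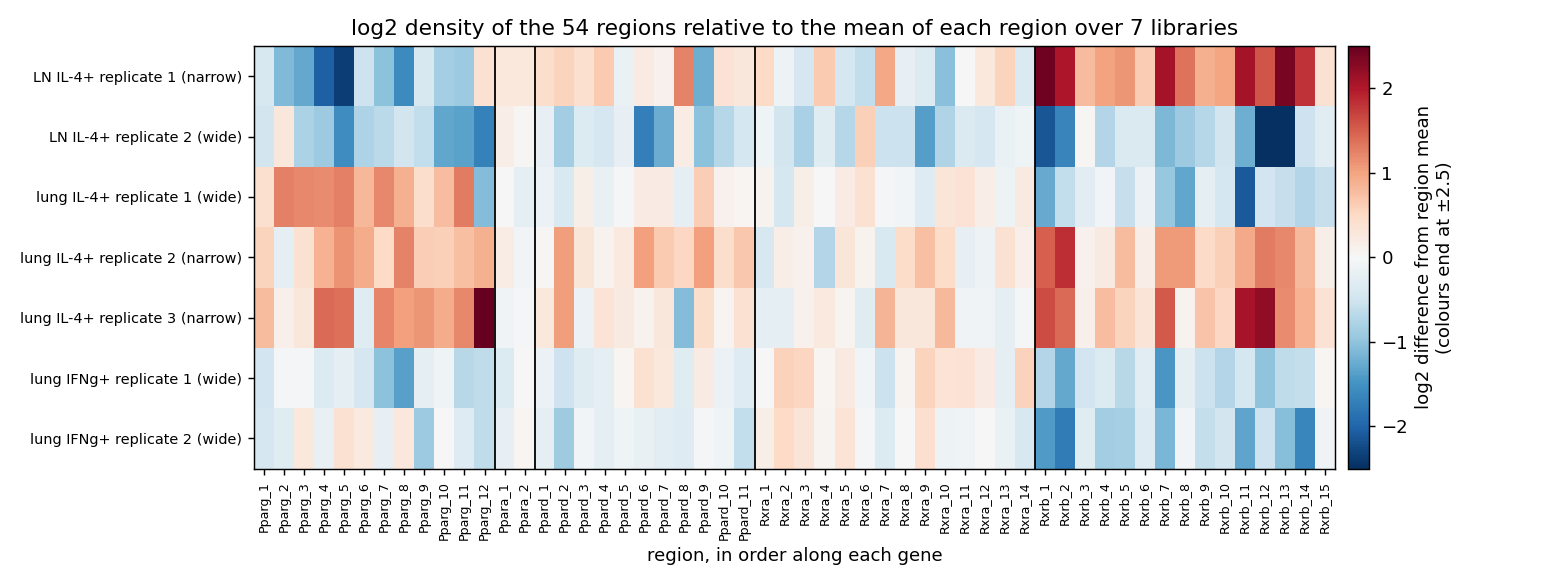
log2 density of each of the 54 regions (columns, by gene and in order along the chromosome) in each of the 7 libraries (rows, with spread class), relative to the mean of the region over the libraries; the colours end at 2.5 above and below. The Pparg columns are red in all 3 lung IL-4+ libraries with few exceptions, while the Rxrb columns are red in the 3 narrow libraries and blue in most of the wide ones.

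Rxrb is a short gene within the major histocompatibility complex region of chromosome 17, and its regions followed the spread class of the library rather than the population. Of its 15 regions, 12 lay within 1 kb of the start of another gene, among them Ring1, H2-Ke6, Slc39a7 and Col11a2, so its window measures a cluster of genes. Its density was 20.6 and 7.64 normalized insertions per kb in LN IL-4+, 8.67, 14.3 and 16.0 in lung IL-4+, and 7.60 and 7.50 in lung IFNγ+ libraries. The 3 narrow libraries were the 3 highest. In all 15 regions the narrow library exceeded the wide one in LN IL-4+ cells, with a median log2 difference of 2.26, and in all 15 the narrow libraries did so in lung IL-4+ cells, with a median of 1.58. Over all regions these medians were -0.04 and -0.05. What sets the spread class of a library was not tested.

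**Figure D5:**
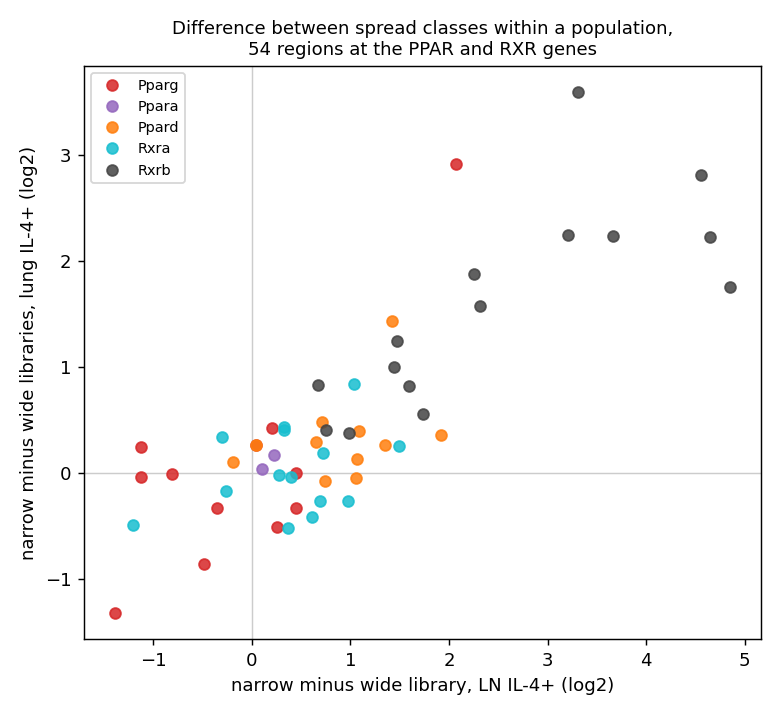
Difference in log2 density between narrow and wide libraries within LN IL-4+ cells (x axis) and within lung IL-4+ cells (y axis) for the 54 regions, coloured by gene. All 15 Rxrb regions lie above 0 on both axes, with medians of 2.26 and 1.58, whereas the Pparg regions have medians of -0.15 and -0.02.

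Called regions at Rxrb numbered 0 in each comparison by limma, beside 0.108% to 2.17% of all regions called in a direction. At an unadjusted p below 0.05, 0 differed between lung and LN IL-4+ cells, where 8.82% of all regions were higher and 7.38% lower. Between the lung populations 1 was higher in IL-4+ cells, as were 6.36% of all regions. In lung IFNγ+ against LN IL-4+ cells 1 was lower, as were 7.81% of all regions. Over its 15 regions the log2 fold changes ran from -0.43 to 1.78 in lung against LN IL-4+ cells, from 0.01 to 2.40 between the lung populations and from -1.76 to -0.00 in lung IFNγ+ against LN IL-4+ cells. Pooled, and from mean log2 signals, the summed signal of lung IL-4+ cells was 1.66-fold that of the IFNγ+ cells, with exact permutation p = 0.2 (smallest possible 0.1). Against the wide lung IL-4+ library alone the log2 difference fell from 0.73 to 0.20. Lung IFNγ+ cells had a log2 difference of -0.73 from LN IL-4+ cells over all libraries and of -0.02 from the wide LN library. The region over the Rxrb start, Rxrb_9 at chr17:34030628-34033797, had log2 densities of 4.76 and 3.17 in LN IL-4+, 3.66, 4.37 and 4.59 in lung IL-4+, and 3.34 and 3.28 in lung IFNγ+ libraries. The 3 narrow libraries were again highest, and lung minus LN IL-4+ cells gave 0.24 (95% interval -0.70 to 1.18, limma adjusted p = 0.85). Rxrb_6, at chr17:34026957-34028280 over the H2-Ke6 start, was the most accessible per kb, with 5.58 and 4.59 in LN IL-4+, 4.80, 5.10 and 5.26 in lung IL-4+, and 4.67 and 4.62 in lung IFNγ+ libraries. The largest pooled differences were at Rxrb_12, Rxrb_2 and Rxrb_7, with log2 values of 1.78, 2.40 and -1.76 in the comparisons of lung with LN IL-4+, lung IL-4+ with IFNγ+, and lung IFNγ+ with LN IL-4+ cells, and adjusted p-values of 0.528, 0.318 and 0.377 by limma. Rxrb_12 was counted with 1 insertion in its lowest library.

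Per kilobase of region, the order of the 5 genes changed with the population only through Pparg, Rxra and Rxrb. In LN IL-4+ cells the mean densities were 22.9 normalized insertions per kb at Ppara, 15.6 at Ppard, 14.1 at Rxrb, 6.38 at Rxra and 3.18 at Pparg. Ppara did not overlap its neighbour, Ppard and Rxrb overlapped, Rxrb lay just above Rxra with a gap smaller than the spread of either, and Pparg lay below Rxra in both libraries. In lung IL-4+ cells Ppara had 19.5, Ppard 16.9, Rxrb 13.0, Pparg 11.3 and Rxra 8.00. There Ppara lay just above Ppard, Rxrb overlapped both of its neighbours, and Pparg lay above Rxra in all 3 libraries, the reverse of the order in the lymph node. In lung IFNγ+ cells the order was Ppara with 19.5, Ppard with 13.7, Rxra with 8.33, Rxrb with 7.55 and Pparg with 5.07, and no neighbours overlapped. Densities depend on how wide the regions at a gene are, and both Ppara regions lie over gene starts. Ppara_2, over the start of Cdpf1, was the more accessible, with 23.7 normalized insertions per kb over the 7 libraries against 16.2 at Ppara_1. The place of Ppara thus rests in part on another gene. Rxrb followed the spread class, and both lung IFNγ+ libraries were wide.

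The members also differed in base composition. The Pparg regions had a median GC content of 42.4%, below the 46.9% of all regions, while those of Ppara, Ppard, Rxra and Rxrb had 61.8%, 54.5%, 54.9% and 55.4%. Pparg_1, over the first start, stood apart from the rest of its gene with 67.9%.

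The DR1 element, searched on both strands with at most 1 mismatch over both hexamers, was present in 1690 of all regions, or 1.48%. It was found at 1 of the 54 members, without a mismatch, in Rxrb_6 at chr17:34027880-34027892, where it reads AGGTCAGAGGTCA on the plus strand. No Pparg region held it under this limit, and the nearest approach there had 2 mismatches, in Pparg_12. Of the 1690 regions with the element, 1.60% were called higher in lung IL-4+ and 0.178% higher in LN IL-4+ cells, beside 1.05% and 0.695% of all regions, with a median log2 fold change of 0.10. Between the lung populations, 0.118% were called higher in IL-4+ and 0.059% higher in IFNγ+ cells, beside 0.108% and 0.387% of all regions. In lung IFNγ+ against LN IL-4+ cells, 2.13% were called higher and 0.651% lower, beside 2.17% and 0.862% of all regions. These shares are descriptions and were not tested against those of all regions.

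Genes that work with the PPARs were read from 4 lists. Their counts stand beside 1.05% of all regions called higher and 0.695% lower in lung against LN IL-4+ cells, 0.108% and 0.387% in lung IL-4+ against IFNγ+ cells, and 2.17% and 0.862% in lung IFNγ+ against LN IL-4+ cells. The other receptors that pair with RXR, 10 genes including the retinoic acid, vitamin D, liver X and thyroid hormone receptors, had 93 regions. In IL-4+ cells, 0 of these were called higher and 1 lower in the lung than in the lymph node, the latter at Thrb with a log2 fold change of -1.96 (limma adjusted p = 0.0164). Between the lung populations 1 was called higher in IL-4+ cells, at the vitamin D receptor gene Vdr, with 1.86 (limma adjusted p = 0.0485), and 0 lower. In lung IFNγ+ against LN IL-4+ cells 0 were called by limma. At an unadjusted p below 0.05 there were 7 higher and 9 lower, 7 and 8, and 3 and 7 in the 3 comparisons. The shares of all regions higher and lower in this way were 8.82% and 7.38%, 6.36% and 8.45%, and 10.7% and 7.81%. The medians over the 93 regions were 0.10, 0.25 and -0.19.

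Of 196 regions at 11 coactivators and corepressors, 3 were called higher and 2 lower in lung IL-4+ cells relative to the lymph node, 0 in either direction between the lung populations, and 3 higher and 4 lower in lung IFNγ+ cells relative to the lymph node, with medians of -0.15, 0.21 and -0.43. The shares of all regions called higher and lower against the lymph node were 1.05% and 0.695% for lung IL-4+ and 2.17% and 0.862% for lung IFNγ+ cells. Without adjustment, 11 were higher and 17 lower, 17 and 10, and 11 and 30 in the 3 comparisons at p below 0.05. The shares of all regions higher and lower in this way were 8.82% and 7.38%, 6.36% and 8.45%, and 10.7% and 7.81%. The corepressor gene Ncor1 had 2 of those higher in lung IL-4+ cells. Its region at chr11:62466182-62467047 was called in both lung populations against the lymph node, with log2 fold changes of 2.43 (SE 0.22, limma adjusted p = 0.00218) in IL-4+ and 2.20 (SE 0.24, limma adjusted p = 0.00206) in IFNγ+ cells. Nrip1, a corepressor that binds many nuclear receptors, had 1 region lower in both lung populations, with -2.33 and -1.67, and further regions called higher and lower in lung IFNγ+ cells. The coactivator gene Ncoa2 had 1 region higher and 1 lower in lung IFNγ+ cells relative to the lymph node, with 1.70 and -1.70.

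Of 17 target genes of the PPARs in lipid metabolism, 15 had regions, 89 in all, and 0 to 2 of these were called in a direction, beside 0.108% to 2.17% of all regions. In lung against LN IL-4+ cells 0 were called higher and 1 lower, at Acsl1, which activates long-chain fatty acids, with a log2 fold change of -1.81 (limma adjusted p = 0.013). In lung IL-4+ against lung IFNγ+ cells 0 were called higher and 1 lower, at the fatty acid transporter gene Slc27a1, with -1.71 (limma adjusted p = 0.0223). The same Slc27a1 region was called higher in lung IFNγ+ cells relative to the lymph node, with 2.75 (limma adjusted p = 0.00144), as was a region at Acadl, an enzyme of fatty acid oxidation, with 1.93 (limma adjusted p = 0.019), and 0 were called lower. Unadjusted p-values below 0.05 were found at 10 higher and 6 lower regions, 4 and 6, and 10 and 6. The shares of all regions higher and lower in this way were 8.82% and 7.38%, 6.36% and 8.45%, and 10.7% and 7.81%. The medians over the 89 regions were -0.02, 0.17 and -0.24.

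Genes that make, carry and break down retinoids, the ligands of RXR and of the retinoic acid receptors, had the lowest medians of the 4 lists against the lymph node, -0.50 in lung IL-4+ and -0.77 in lung IFNγ+ cells, and a median of 0.28 between the lung populations. Of 8 genes, 6 had regions, 19 in all. Those called lay at Stra6, the receptor for the carrier of retinol, with 1 lower in lung IL-4+ and 3 lower in lung IFNγ+ cells relative to the lymph node, and 0 were called between the lung populations or higher in the lung. The Stra6 region at chr9:58112311-58112737 was lower in both, with log2 fold changes of -2.58 (limma adjusted p = 0.0131) in IL-4+ and -2.35 (limma adjusted p = 0.0215) in IFNγ+ cells. With no adjustment, 0 of the 19 regions were higher and 3 lower at p below 0.05 in lung against LN IL-4+ cells. The counts were 3 and 0 between the lung populations, and 0 and 6 in lung IFNγ+ against LN IL-4+ cells. The shares of all regions higher and lower in this way were 8.82% and 7.38%, 6.36% and 8.45%, and 10.7% and 7.81%.

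The genes most like each member were sought by the Pearson correlation of log2 summed signal over the 7 libraries, among 13284 protein-coding genes with at least 3 regions. They are given as a description, since 7 points in 3 populations and 2 spread classes leave many genes alike. For Pparg they were Slc38a8 (r = 0.985), Hilpda (0.980) and Tubb4a (0.979). Slc38a8, a member of an amino acid transporter family, had summed signals of 14.9 and 12.9 in LN IL-4+, 42.5, 33.2 and 37.6 in lung IL-4+, and 20.2 and 20.8 in lung IFNγ+ libraries, in the same order of populations as Pparg. Hilpda, a lipid droplet protein, had 74.5 and 75.6 in LN IL-4+, 96.0 to 103.8 in lung IL-4+, and 79.6 and 86.4 in lung IFNγ+ libraries, a smaller difference. For Rxra they were Fam129b (0.985), Tbx21, which encodes the Th1 factor T-bet (0.977), and Gfod1 (0.975). Tbx21 had 39.7 and 15.6 in LN IL-4+, 35.5, 61.1 and 51.1 in lung IL-4+, and 66.3 and 64.8 in lung IFNγ+ libraries. For Ppara they were Ciart, Zc3h7a and Hmces, with r of 0.985 to 0.994. For Ppard they were Fam83f, Fam171a2 and Safb, with r of 0.995 to 0.997. For Rxrb they were Ahdc1, Borcs6 and Ankrd13b, all at 0.999, and each of these was highest in LN IL-4+ replicate 1, a narrow library.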

How the data were processed

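ATAC-seq was analysed in 7 libraries of 3 populations, which the labels separate by tissue and reporter, and no column of the table was left out. The authors trimmed and mapped the reads to GRCm38, removed mitochondrial, low-quality and blacklisted reads, merged peaks of the replicates, counted insertions per region and normalized them with voom. The submitters' processing notes name Bowtie2 2.3.2, MACS2 2.1.1, limma 3.38.3 and R 3.5.1. The deposited values are log2 densities, normalized insertions per kb, which the authors did not describe as quantile-normalized but whose sorted values nearly coincide between libraries once region length is removed. That forces equal distributions on libraries of unequal depth and spread. Insertions were rebuilt as the rank of each distinct value within a library, a lower bound, and duplicates among them are unknown.

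Regions were matched to genes with GENCODE M21. All 113820 regions were fitted with limma 3.58.1 in R 4.3.3 (1 mean per population, eBayes with a variance trend, Benjamini-Hochberg within a comparison, no filter, no pseudocount). The authors defined accessible regions by a mean of 5 normalized insertions per kb. That limit was not applied in the main fit, so the members and the shares of all regions include thinly covered regions. On simulated data for lung IL-4+ against LN IL-4+ cells, with a planted log2 change of 3, 77 of 200 changed regions were recovered with 0 false calls. With the spread scaled by 0.2, 200 of 200 were recovered. The simulated noise was independent between libraries and held no spread classes, so the rate of false calls in the real data cannot be read from it. Summed signals were tested by exact two-sided permutation in Python 3.11.15 with scipy 1.17.1. The members, the gene lists and the marker lists (CD4 T cell, B cell, CD8 T cell, NK cell, macrophage, basophil and eosinophil, lung epithelium) were chosen with earlier results of these data known. Named regions are, per gene, those called, the most accessible one overall and within 1 kb of a start, and the one with the largest fold change per comparison. Of the motifs, DR1 was set with the design, while AGATAA was added with TGANTCA and with AACCACA after the data were seen. Alternatives were other normalizations, a pseudocount, a filter, fits of 2 populations, a replicate block, array weights, no variance trend, other fold thresholds, a spread class covariate, voom on rebuilt counts, other flanks, the mean of log2 densities, single spread classes and each library left out. One of the marker genes chosen is not reported here.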

Additional observations from a re-analysis of the deposited data

How the results depend on the processing

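Against LN IL-4+ cells, the numbers of called regions at the 5 genes moved with the error model more than with the scaling. Between the lung populations, settings of both kinds removed the only call. In lung against LN IL-4+ cells, where 5 were called higher, the count was 0 with a replicate block, 0 without a variance trend and 8 with the spread class as a covariate. It was 4 with log2(density + 1), 6 with the filter on low regions and 7 with 25 kb flanks. With a library left out it was between 3 and 5, the 3 being without lung IL-4+ replicate 2. Between the lung populations, where 1 was called higher in IL-4+ cells, it was 0 with median centring, log2(density + 1), a replicate block or no variance trend, 2 with the spread class covariate, 6 with array weights, and between 0 and 1 with a library left out, 0 for each of the 5 lung libraries. In lung IFNγ+ against LN IL-4+ cells, where 1 was called higher, it was 0 with 2 populations only, a replicate block or no variance trend, 2 with a fold change of at least 2, with no fold threshold or with the spread class covariate, and between 0 and 2 with a library left out, 0 without either lung IFNγ+ library and 2 without LN IL-4+ replicate 2. Without that LN library 3 regions were called lower in lung IFNγ+ cells, and 0 without any other library. With the replicate block, of all regions 0 and 0 were called in the comparisons with lung IL-4+ cells, and 468 higher and 88 lower in lung IFNγ+ against LN IL-4+ cells. The replicate numbers are shared in the labels but pair nothing that the labels name, and same-numbered libraries had deviations correlated at -0.54 to 0.06, so the block was not used as a paired design.

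The direction of the summed signal at Pparg and Rxra was the same in every setting tried, as was that of the called regions. The size at Rxra moved with the LN libraries, from 0.10 to 0.58 for lung IL-4+ and 0.17 to 0.64 for lung IFNγ+ cells. At Ppard, lung against LN IL-4+ cells gave -0.092 in narrow libraries and -0.20 to 0.49 with a library left out, and lung IFNγ+ against LN IL-4+ cells gave 0.19 in wide libraries and -0.50 to 0.19 with a library left out. At Rxrb, lung against LN IL-4+ cells, with a value of 0.00 over all libraries, gave -0.023 with median centring, -0.45 in narrow libraries and -0.71 to 0.72 with a library left out. At Ppara, the lung populations differed by 0.30 in the gene body alone, 0.05 with 25 kb flanks, 0.076 as a mean of log2 densities and -0.041 to 0.040 with a library left out, around a value of -0.002. The cause was not tested for any of these changes. The median over the members of the insertions in their lowest library was 53.5, and how the calls depend on depth was not tested.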
